A study of Mus musculus with 6 samples.

Results

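The haemogenic regulators are 10 genes for DNA-binding factors and their adaptors: Tal1, Lyl1, Lmo2, Ldb1, Gfi1, Gfi1b, Myb, Mecom, Hhex and Ikzf1. They were chosen by name, with earlier results of these data known. All 10 were measured among the 18193 genes with a probe set of their own. They had 15 probe sets, 1 for each of 7 genes and several for Myb, Mecom and Ikzf1. For each gene the probe set with the highest mean over the 6 arrays was used. RNA was taken from cells of 3 sites, heart tube, caudal-half embryo and yolk sac, in mouse embryos at embryonic day 9.5, on a mixed strain background, with 2 independent biological replicates per tissue and 1 Affymetrix array per replicate. All samples were fresh cells sorted for CD31 and against CD41 and CD45, a gate that enriches endothelium and removes many early blood progenitors and leukocytes. Every sample is tagged Wt, no treatment or allele distinguished the groups per the labels, and how many embryos were pooled for each sample is not stated there.

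The first blood stem and progenitor cells arise from haemogenic endothelium, endothelial cells in the yolk sac and in the large arteries of the trunk that change into blood cells. Tal1 is a basic helix-loop-helix factor that starts this programme. It binds DNA with an E-protein and is tied to GATA factors by the LIM-only adaptor Lmo2 and the dimerising adaptor Ldb1. Gfi1 and Gfi1b are zinc finger repressors that shut down endothelial genes as blood cells emerge, while Myb is needed for definitive but not for primitive blood formation. Endothelial cells also express part of this set without becoming blood.

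Levels are natural logs of the signals the authors deposited, read as RMA values on a log2 scale. The log base is not stated, and if the signals are linear every difference and standard error is larger by a factor of 1.44, with no change in limma's p-values. Replicate arrays correlated at r = 0.981 to 0.986 over all probe sets without controls, and arrays of different tissues at 0.946 to 0.969. Signals of 27 probe sets for bacterial RNAs, from 1.33 to 4.03, served as a guide to weak values. Pecam1, the gene of CD31, was at 9.55 ± 0.08 in heart tube cells, 9.95 ± 0.18 in caudal-half cells and 9.96 ± 0.19 in yolk sac cells (SD, n = 2 each). None of 12 endothelial markers had a tissue mean within the bacterial range, and Ptprc, the gene of CD45, was within it in all 3 tissues (2.47, 2.79 and 2.73). Itga2b, the gene of CD41 that was sorted against, was above it in all 3, at 6.87 in heart tube cells, 6.61 in caudal-half cells and 8.28 in yolk sac cells.

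The 3 comparisons set sorted cells of each site against those of each other site. Lmo2, Gfi1 and Myb read highest in caudal-half cells, and Mecom read highest in heart tube cells. Tal1, Lyl1 and Ldb1 had no called difference between the 3 tissues. In limma's test over all genes (Benjamini-Hochberg adjusted p under 0.05), 3 of the 10 regulators were called between heart tube and caudal-half cells, where 5.51% of all genes were called (2.86% higher, 2.65% lower): Mecom was higher in heart tube cells, and Lmo2 and Myb were lower. Between heart tube and yolk sac, Mecom was the single call among the 10, against 11.8% of all genes (5.14% higher, 6.67% lower). Between caudal-half cells and yolk sac 4 were called, Gfi1, Lmo2, Myb and Mecom, each higher in caudal-half cells, where 9.08% of all genes were called in either direction, 4.22% higher and 4.86% lower. The median difference of the 10 genes was -0.13, -0.11 and 0.29 in these comparisons, and that of all genes -0.08, -0.06 and 0.02. Each pair of comparisons shares the arrays of 1 tissue, so their results are not independent. In sorted cell fractions, fewer cells that express a gene and less RNA per cell cannot be told apart.

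**Figure D1:**
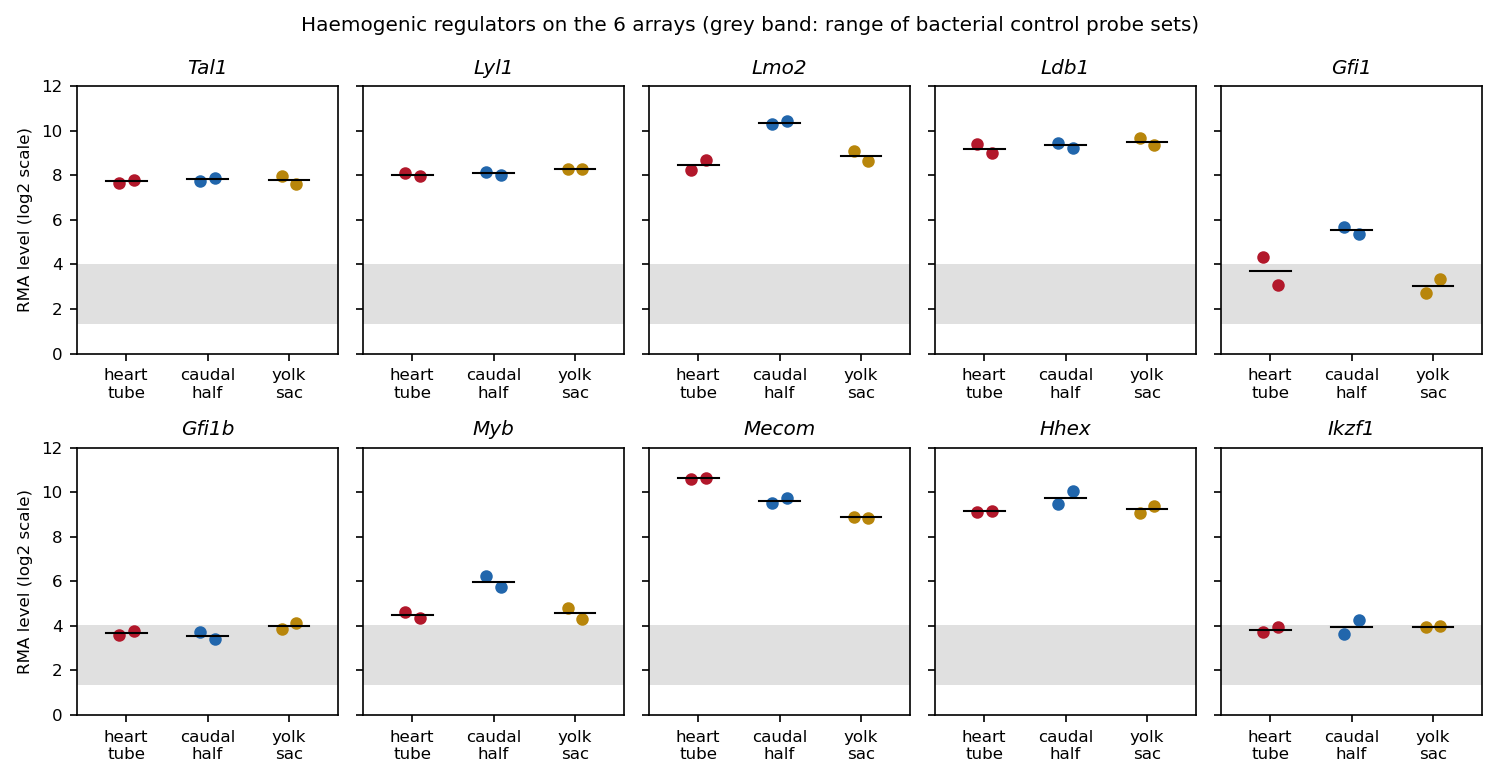
RMA level (log2 scale) of each regulator on the 6 arrays, with heart tube, caudal-half cells and yolk sac from left to right; points are arrays, black bars tissue means, and the grey band is the range of the bacterial controls, 1.33 to 4.03. The caudal arrays of Lmo2 (10.28 and 10.42) and Myb (6.22 and 5.76) lie above the other 4 arrays, Mecom steps down from left to right, and Gfi1b and Ikzf1 stay near the band.

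Tal1, the master regulator of blood specification, was at 7.65 and 7.79 in heart tube cells, 7.73 and 7.89 in caudal-half cells and 7.95 and 7.59 in yolk sac cells. The 3 tissues overlapped. Its differences were -0.09 between heart tube and caudal-half cells (95% interval -0.55 to 0.38), -0.05 between heart tube and yolk sac (-0.51 to 0.42) and 0.04 between caudal-half cells and yolk sac (-0.43 to 0.50). Differences beyond about these bounds were outside the intervals, but the bounds are no limit of detection. The smallest difference called for any gene was 0.728, 0.637 and 0.662 in these comparisons, so smaller ones were not detected with 2 arrays per tissue.

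Lyl1, the close relative of Tal1 with which it shares functions in blood stem cells, was at 8.09 and 7.96 in heart tube cells, 8.14 and 8.02 in caudal-half cells and 8.29 and 8.27 in yolk sac cells. The yolk sac arrays were the highest of the 6, but the differences of -0.25 for heart tube and -0.20 for caudal-half cells against yolk sac were not called (limma adjusted p = 0.379 and 0.533). Ldb1, which self-associates and so can loop enhancers to promoters, was at 9.38 and 8.98 in heart tube cells, 9.44 and 9.23 in caudal-half cells and 9.68 and 9.34 in yolk sac cells. Its arrays overlapped between all tissues, and none of its differences was called. The one of largest size was -0.33, for heart tube against yolk sac (95% interval -0.86 to 0.20).

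Lmo2, the adaptor that links Tal1 to GATA factors, was called in 2 comparisons, unlike Tal1, Lyl1 and Ldb1. It was at 8.24 and 8.69 in heart tube cells, 10.28 and 10.42 in caudal-half cells and 9.09 and 8.65 in yolk sac cells. Both caudal arrays were above all others, while heart tube and yolk sac arrays overlapped. Lmo2 was lower in heart tube cells than in caudal-half cells (difference -1.89 ± 0.24, SE; limma adjusted p = 0.00779). It was higher in caudal-half cells than in yolk sac cells by 1.48 ± 0.24 (limma adjusted p = 0.0145). Heart tube and yolk sac differed by -0.41, which was not called (limma adjusted p = 0.334). The direction held without each single array, but the first call was lost without the first heart tube array or either caudal array (limma adjusted p 0.0513 to 0.0534), and the second without either caudal array or the second yolk sac array (0.0567 to 0.0773).

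Gfi1, the zinc finger repressor that marks haemogenic endothelium in the trunk, was at 4.34 and 3.08 in heart tube cells, 5.70 and 5.35 in caudal-half cells and 2.73 and 3.33 in yolk sac cells. Both caudal arrays stood above the bacterial range and above the other 4 arrays. The yolk sac arrays and 1 heart tube array were within that range, so the lower side of the difference is close to background. Gfi1 was higher in caudal-half cells than in yolk sac cells by 2.49 ± 0.43 (SE; limma adjusted p = 0.0188). The difference of heart tube from caudal-half cells was -1.81 ± 0.43 and was not called (limma adjusted p = 0.0686). The heart tube arrays lay far apart, and without the first of them that difference was -2.45 and was called (limma adjusted p = 0.0333). Without the second it was -1.18 (0.182), and without the first or the second caudal array -1.64 and -1.98 (0.272 and 0.159), none of them called. The call against yolk sac cells was lost without either caudal array or the first yolk sac array (0.0725 to 0.104). The 250 bases before the outermost annotated start of Gfi1 are shown because it and Myb read highest in the same tissue. In the RefSeq promoter table of GRCm38.p6 they lie at chr5:107725806-107726055 on the minus strand, and capitals mark matches to CANNTG, the E-box bound by Tal1 with an E-protein, and to AACNG, the core bound by Myb, on either strand.

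Gfi1: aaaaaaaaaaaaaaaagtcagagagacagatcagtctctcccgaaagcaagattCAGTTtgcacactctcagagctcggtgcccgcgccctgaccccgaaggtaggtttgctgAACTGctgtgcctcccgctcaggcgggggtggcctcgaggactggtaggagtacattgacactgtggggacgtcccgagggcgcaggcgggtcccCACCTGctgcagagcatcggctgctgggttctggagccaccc

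Gfi1b, the paralogue that acts in red cell and megakaryocyte precursors, was at 3.61 and 3.77 in heart tube cells, 3.7 and 3.42 in caudal-half cells and 3.85 and 4.14 in yolk sac cells. All 3 tissue means were within the bacterial range. Its largest difference, -0.43 between caudal-half cells and yolk sac (95% interval -0.90 to 0.04), was not called (limma adjusted p = 0.247) and ran opposite to that of Gfi1. At levels this close to background a small change of Gfi1b could not be detected.

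Myb, a factor of definitive progenitors, was at 4.60 and 4.35 in heart tube cells, 6.22 and 5.76 in caudal-half cells and 4.81 and 4.30 in yolk sac cells. Both caudal arrays were the highest, and heart tube and yolk sac overlapped. Myb was lower in heart tube cells than in caudal-half cells (difference -1.51 ± 0.25, SE; limma adjusted p = 0.0233) and higher in caudal-half cells than in yolk sac cells by 1.43 ± 0.25 (limma adjusted p = 0.0210). The heart tube minus yolk sac difference was -0.08 (95% interval -0.69 to 0.53). The first call was lost without either heart tube array or the first caudal array (limma adjusted p 0.0949 to 0.132), and the second without the first caudal or the second yolk sac array (0.0765 to 0.103).

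By tissue mean the 3 probe sets of Myb put caudal-half cells highest. The one used carries the suffix for probes that may match other transcripts. The second, without that suffix, was at 3.24 and 3.20 in heart tube cells, 4.75 and 4.52 in caudal-half cells and 2.92 and 2.65 in yolk sac cells. It gave differences of -1.41 ± 0.19 for heart tube against caudal-half cells and 1.85 ± 0.19 for caudal-half cells against yolk sac (limma p adjusted over every named probe set = 0.0132 and 0.00458). Its heart tube and yolk sac arrays were within the bacterial range, so the lower side of both differences is close to background. The third was within the bacterial range on all 6 arrays (1.80 to 3.7) and passed no test. Its caudal arrays read 3.7 and 2.27, the second of them below the second heart tube array (2.66). The 250 bases before the annotated start of Myb, at chr10:21160985-21161234 on the minus strand, hold no match to CANNTG or AACNG, and 81.2% of them are G or C.

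Myb: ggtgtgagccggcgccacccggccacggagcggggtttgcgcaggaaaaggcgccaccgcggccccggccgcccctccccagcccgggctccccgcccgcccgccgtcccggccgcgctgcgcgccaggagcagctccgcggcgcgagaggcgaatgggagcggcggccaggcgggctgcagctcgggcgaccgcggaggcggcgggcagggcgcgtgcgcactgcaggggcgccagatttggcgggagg

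**Figure D2:**
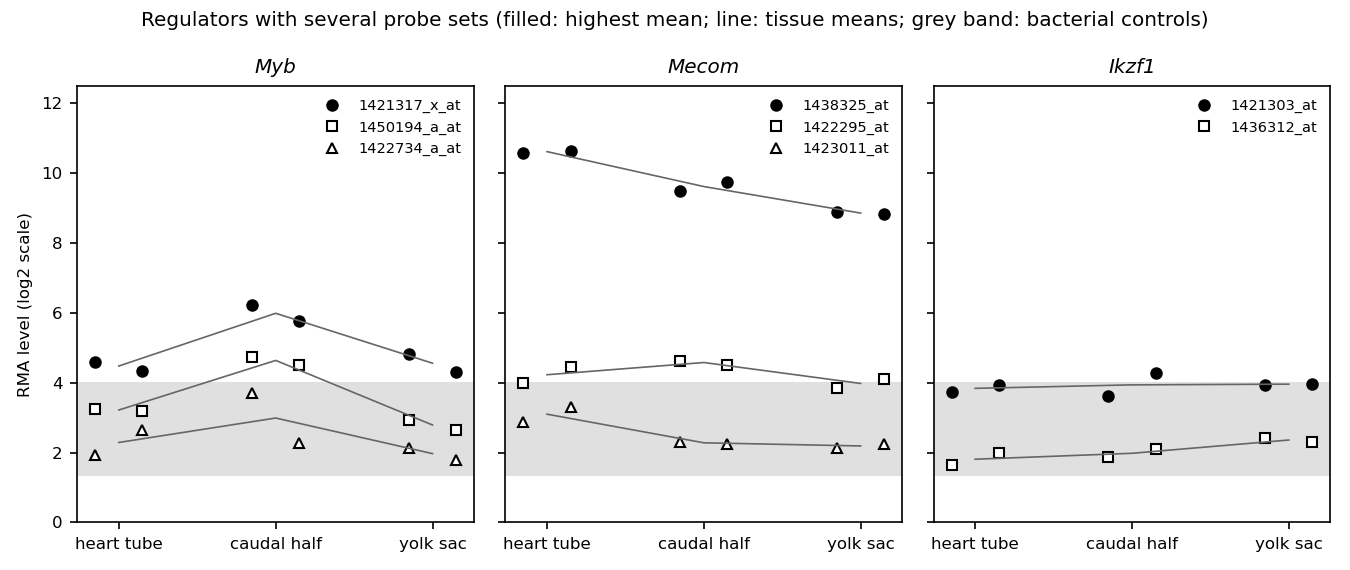
RMA level (log2 scale) of each probe set of Myb, Mecom and Ikzf1 on the 6 arrays, with heart tube, caudal-half cells and yolk sac from left to right; points are arrays, lines join tissue means, and the grey band is the bacterial range. The tissue means of the 3 probe sets of Myb peak in the middle tissue, though the arrays of the dimmest overlap. Of the 3 of Mecom only the bright one (8.83 to 10.65) and the dimmest one read highest in heart tube cells.

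Mecom, which encodes the zinc finger factor Evi1 and longer forms with a PR domain and sustains blood stem cells, showed another order. It was at 10.58 and 10.65 in heart tube cells, 9.5 and 9.74 in caudal-half cells and 8.90 and 8.83 in yolk sac cells, with no overlap between tissues. It was higher in heart tube cells than in caudal-half cells by 1.00 ± 0.17 (SE; limma adjusted p = 0.0238) and than in yolk sac cells by 1.75 ± 0.17 (limma adjusted p = 0.00166). Caudal-half cells were higher than yolk sac cells by 0.76 ± 0.17 (limma adjusted p = 0.0429). The call between heart tube and yolk sac held without each single array (limma adjusted p 0.00465 to 0.0177). The call against caudal-half cells was lost without either heart tube or either caudal array (0.0605 to 0.134), and the call between caudal-half cells and yolk sac was lost without any 1 of the 6 arrays (0.0846 to 0.164).

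The other probe sets of Mecom followed this order only in part. The dimmest, within the bacterial range on all arrays, read 2.88 and 3.32 in heart tube cells, 2.31 and 2.25 in caudal-half cells and 2.13 and 2.25 in yolk sac cells, and passed against yolk sac cells (0.91 ± 0.21, limma p adjusted over every named probe set = 0.0431). The third read 4.0 and 4.46 in heart tube cells, 4.63 and 4.52 in caudal-half cells and 3.85 and 4.12 in yolk sac cells. It was highest in caudal-half cells and passed no test. With the mean of its 3 probe sets, Mecom kept its call between heart tube and yolk sac (0.97, limma adjusted p = 0.0118) and lost those of heart tube against caudal-half cells (0.49, 0.160) and caudal-half cells against yolk sac (0.48, 0.129). Mecom has 2 starts in the RefSeq table, and the outer one, of the longer forms, is shown because Mecom alone was called in all 3 comparisons. The 250 bases before the inner start hold no match to the motifs searched, and which start yields the RNA measured was not tested. Those before the outer start lie at chr3:30509760-30510009 on the minus strand. Capitals mark 1 match each to CANNTG, to AACNG and to AAATCA, which contains the AATC core bound by Gfi1.

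Mecom: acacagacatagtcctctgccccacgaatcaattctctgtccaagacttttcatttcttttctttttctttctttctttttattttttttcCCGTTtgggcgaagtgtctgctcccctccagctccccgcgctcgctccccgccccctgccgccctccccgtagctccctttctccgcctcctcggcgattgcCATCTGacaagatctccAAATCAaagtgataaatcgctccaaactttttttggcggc

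Among all 32851 promoters of the RefSeq table, 66.2% hold CANNTG in the same 250 bases on either strand, 74.2% AACNG and 12.4% AAATCA. Some runs, such as those that start with CAAC, match both of the first motifs. AGATAA for GATA factors (9.99% of promoters), TGTGGT for Runx factors (14.0%) and CCGGAA for ETS factors (12%) were searched as well and had no match in the 3 sequences shown. Of the 10 regulators, 9 had an entry in that table, and Lmo2, which also read highest in caudal-half cells, had none.

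Hhex, a homeobox factor of blood islands, endothelium and endoderm, was at 9.09 and 9.17 in heart tube cells, 9.46 and 10.05 in caudal-half cells and 9.08 and 9.37 in yolk sac cells. The caudal arrays were the highest of the 6. Hhex was not called, with a difference of -0.63 between heart tube and caudal-half cells (95% interval -1.20 to -0.05, limma adjusted p = 0.225) and of 0.54 between caudal-half cells and yolk sac (-0.04 to 1.11, limma adjusted p = 0.242). Hhex is also a gene of the visceral endoderm. Of 13 markers of that layer, 11 were lower in heart tube cells than in yolk sac cells and 10 lower in caudal-half cells than in yolk sac cells, with median differences of -4.53 and -4.95. Of all genes, 6.67% and 4.86% were called lower there. Hhex itself differed by -0.09 between heart tube and yolk sac (95% interval -0.67 to 0.49, limma adjusted p = 0.858). The part of visceral endoderm in its level was not tested.

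Ikzf1, which encodes Ikaros, a zinc finger factor of lymphoid and early blood cells, was at 3.73 and 3.95 in heart tube cells, 3.61 and 4.27 in caudal-half cells and 3.94 and 3.97 in yolk sac cells. Its tissue means were within the bacterial range, and its second probe set read 1.64 to 2.42. None of its differences exceeded -0.12 in size and none was called, with the limma adjusted p at 0.804 or above.

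**Figure D3:**
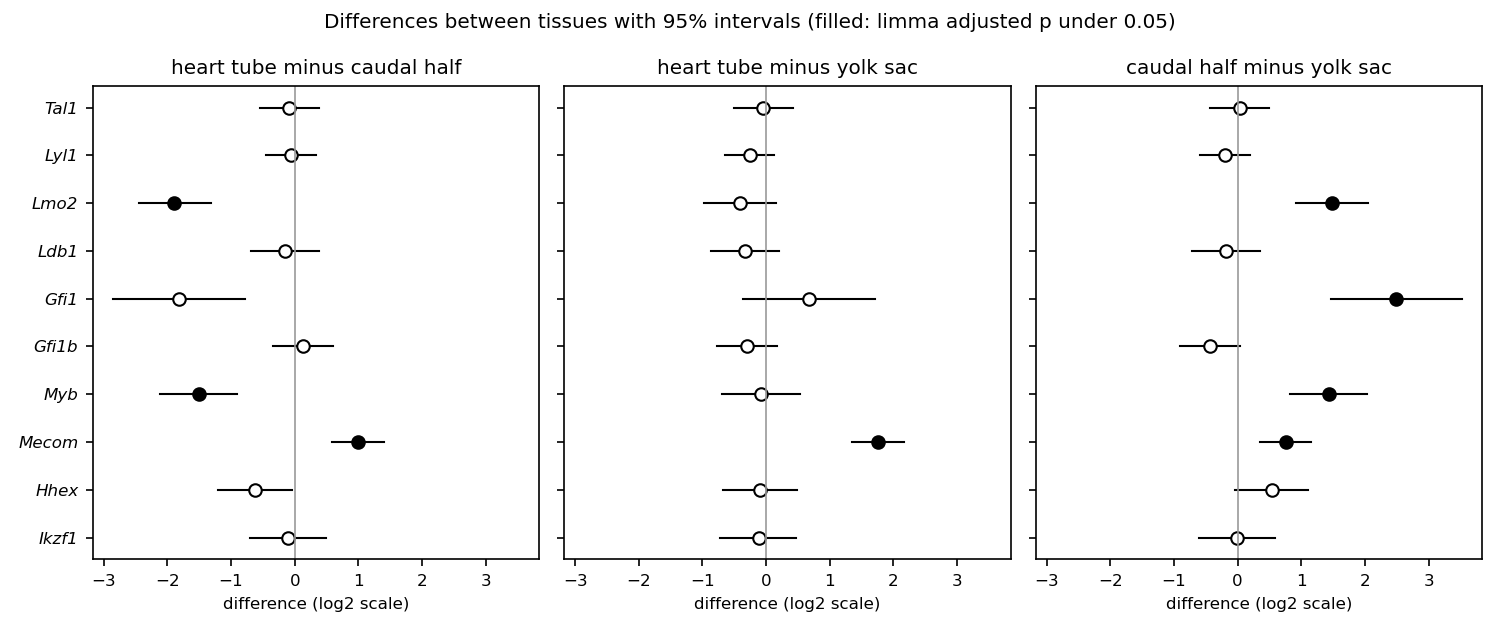
Difference of each regulator (log2 scale) in the 3 comparisons, with 95% intervals from limma over all 6 arrays; filled points have an adjusted p under 0.05. Lmo2, Gfi1 and Myb lie left of 0 in the first panel and right of it in the third, and Mecom is right of 0 in all 3.

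The number of calls rested on single arrays. Without the first caudal array limma called 0 of the 10 regulators in either comparison of caudal-half cells, with 5 at an unadjusted p under 0.05 in each. Without the second it called 1 in each. Without either heart tube array it called 1 between heart tube and caudal-half cells, and without the first or the second yolk sac array 2 and 1 between caudal-half cells and yolk sac. Calls over all genes fell in these fits as well, so the loss was not particular to the regulators. The lone array of a tissue is assumed in them to vary like the others.

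The genes whose 6 values followed each called regulator most closely, after each gene was centred on its own mean, were found among 3006 other genes called in at least 1 comparison. For Lmo2 they were Sorcs2, a sortilin-type receptor (root mean square distance 0.128), and Mmp17, a membrane-bound metalloproteinase (0.146). For Myb they were Atp8a1, a phospholipid flippase (0.130), and Spata13, an exchange factor for small GTPases (0.178). For Gfi1 they were Crabp1, a binding protein for retinoic acid (0.308), and Sting1, a sensor of cyclic dinucleotides (0.321). For Mecom they were Tmtc4 (0.090) and Tmcc2 (0.120), both genes for transmembrane proteins. Crabp1, as the nearest to Gfi1, was at 6.24 and 5.84 in heart tube cells, 8.05 and 7.70 in caudal-half cells and 4.67 and 5.34 in yolk sac cells. These likenesses describe 6 arrays and were not tested.

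Among 16 partners of the Tal1 complex and factors that bind with it, Cbfa2t3, a corepressor in the Tal1 complex, was the single call between heart tube and caudal-half cells. It was at 9.48 and 9.31 in heart tube cells and 7.58 and 7.75 in caudal-half cells, a difference of 1.73 ± 0.17 (SE; limma adjusted p = 0.00342). With the mean of its probe sets this difference was 0.82 and was still called (0.0233). Against yolk sac cells, 3 partners were higher in heart tube cells and 2 lower. They included Gata3 (2.03), Cbfa2t3 (1.03) and the E-protein gene Tcf12 (0.99) upward, and the ETS factor gene Erg (-0.99) downward. When the probe sets of each gene were averaged, Cbfa2t3 was at 0.52 and no longer called (limma adjusted p = 0.0643), and Tcf12 was at 0.61 and called (0.0326). Erg lost its call when only the 2 tissues compared were fitted and with the replicate number as a block (limma adjusted p up to 0.0542). Between caudal-half cells and yolk sac 2 were called, both higher: Gata3 (1.96) and Tcf3, the gene of the E-proteins E12 and E47 (0.97). Tcf3 lost its call under the mean of its probe sets and when only the 2 tissues compared were fitted (limma adjusted p up to 0.0704). The medians of the 16 differences were -0.04, 0.26 and 0.19. Gata2 and Runx1, the central factors of haemogenic endothelium, passed no test. Gata2 was at 9.34, 9.21 and 9.10 in heart tube, caudal-half cells and yolk sac, and Runx1 at 6.27, 6.48 and 6.55.

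**Figure D4:**
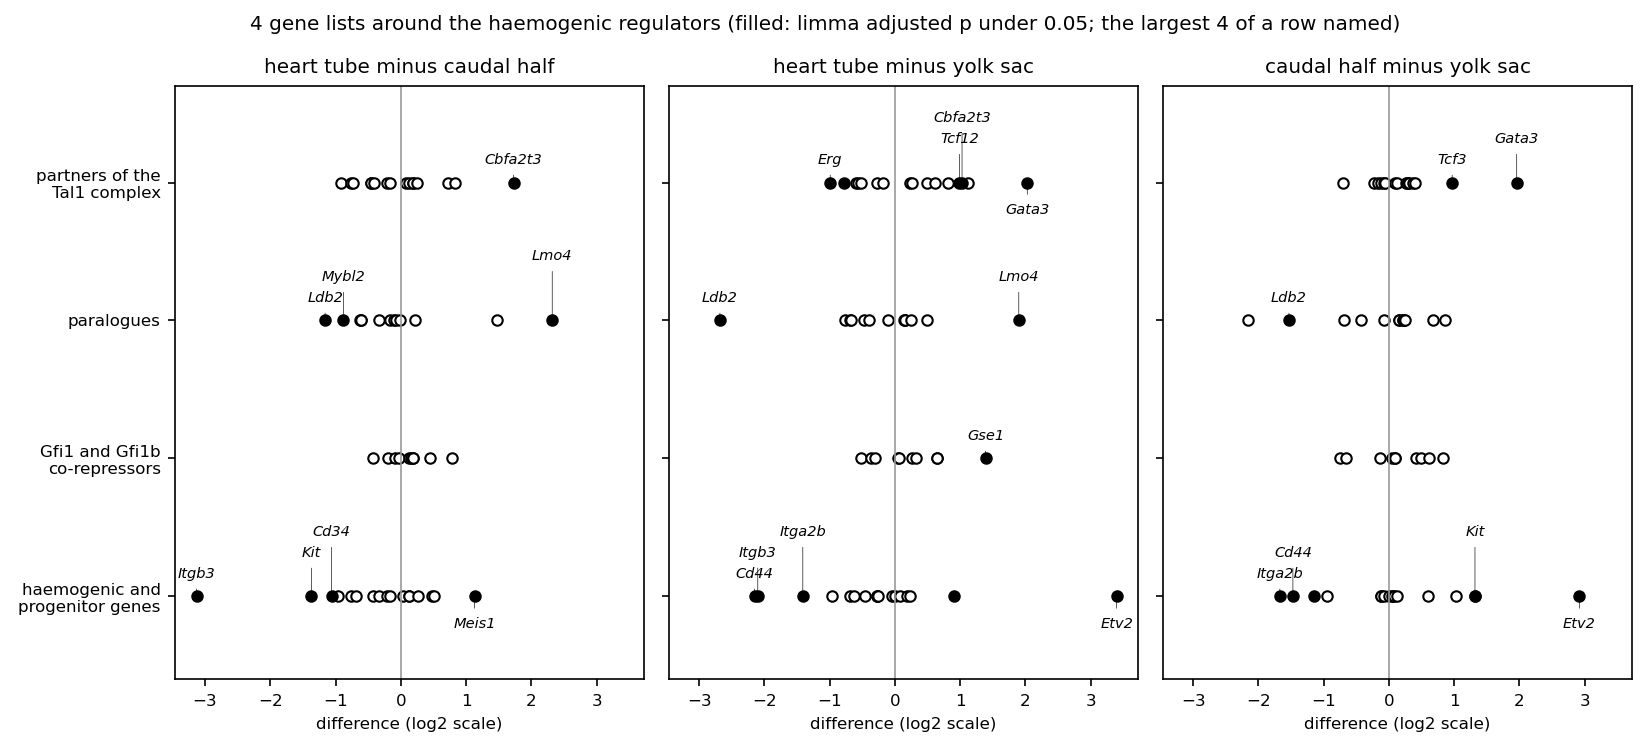
Differences (log2 scale) of the genes of 4 lists in the 3 comparisons, 1 point a gene; filled points have a limma adjusted p under 0.05, and up to 4 of them per list and comparison are named. Cbfa2t3, Lmo4 and Meis1 lie on the heart tube side of the first panel, opposite Kit, Cd34 and Itgb3.

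Genes of haemogenic endothelium and early progenitors were split. Of 17, 3 were lower in heart tube cells than in caudal-half cells: Itgb3, the integrin chain CD61 (-3.13), the stem cell factor receptor gene Kit (-1.37) and Cd34, a sialomucin of endothelium and progenitors (-1.06). Meis1, a homeobox cofactor of stem cells, was higher (1.13). Kit was at 6.21 and 5.99 in heart tube cells, 7.13 and 7.81 in caudal-half cells and 6.09 and 6.21 in yolk sac cells, and was also higher in caudal-half cells than in yolk sac cells (1.32 ± 0.25, limma adjusted p = 0.0267). In that comparison 3 were higher and 3 lower. Etv2, the early factor of blood and endothelial fate, was higher (2.92), and Itga2b, the gene of CD41 on which the sort was gated (-1.67), and the hyaluronan receptor gene Cd44 (-1.47) were lower. Between heart tube and yolk sac 2 were higher and 3 lower, with Etv2 at 3.40 and Cd44, Itgb3 and Itga2b at -2.15, -2.10 and -1.41. Etv2 was at 5.455 and 3.928 on the yolk sac arrays, and Itgb3 at 3.809 and 5.406 on the heart tube arrays. For each gene 1 of these arrays was within the bacterial range, so the sizes of these differences rest partly on values near background. When the probe sets of each gene were averaged, Itgb3 was at -1.84 against caudal-half cells and -1.24 against yolk sac cells, and Cd44 at -1.42 between heart tube and yolk sac, all still called. Kit and Meis1 lost their calls between heart tube and caudal-half cells under that averaging. They also lost them when only the 2 tissues compared were fitted and with the replicate number as a block. Both calls of Kit were lost without any 1 array other than the first caudal array. Its differences then ran from -1.71 to -1.03 against caudal-half cells and from 0.98 to 1.66 between caudal-half cells and yolk sac. Itgb3 lost its call against caudal-half cells without either caudal array (limma adjusted p up to 0.0903). Its difference from yolk sac cells ran from -2.90 to -1.30 when 1 array was left out, and kept its call only without the second heart tube array. The medians were -0.21, -0.28 and 0.05. Genes of the set were thus called in both directions in each comparison, and 5.51%, 11.8% and 9.08% of all genes were called there.

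Of 10 corepressors that act with Gfi1 and Gfi1b limma called 0 between heart tube and caudal-half cells and 0 between caudal-half cells and yolk sac. The unadjusted limma p was under 0.05 for 1 and 4 of them, and for 19.5% and 23.8% of all genes. Gse1, a component of such a complex, was higher in heart tube cells than in yolk sac cells (1.39 ± 0.21, limma adjusted p = 0.00885).

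Across these lists and the paralogues, 26 calls on named genes were made, and 8 of them held without each single array. These were Cbfa2t3 and Lmo4 between heart tube and caudal-half cells, Ldb2, Lmo4, Etv2 and Cd44 between heart tube and yolk sac, and Ldb2 and Itga2b between caudal-half cells and yolk sac. The other 18 were lost without at least 1 of the 6 arrays, with limma adjusted p of up to 0.198, and none changed direction. Mybl2 and Meis1 between heart tube and caudal-half cells and Tcf3 between caudal-half cells and yolk sac were lost without any 1 array.

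Markers of other cells differed between the fractions, and their part in the results was not tested. Of 13 genes of macrophages and other leukocytes, cells that the sort against CD45 should remove, Coro1a was lower in heart tube cells than in caudal-half cells (-1.85), and Coro1a (1.56) and Laptm5 (1.38) were higher in caudal-half cells than in yolk sac cells. The mean level of the 13 genes was 4.0 and 3.81 in heart tube cells, 4.43 and 4.53 in caudal-half cells and 4.16 and 4.22 in yolk sac cells. Between heart tube and yolk sac limma called 0 of them, with 3 at an unadjusted p under 0.05, as were 26% of all genes. Of the 13, 9, 6 and 6 had a mean within the bacterial range in these tissues, among them Ptprc and Tyrobp in all 3.

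Of 13 primitive erythroid genes, 5 were lower in caudal-half cells than in yolk sac cells, where Lmo2, Gfi1 and Myb were higher, and 7 were not called. The lower ones included Hemgn (-2.51) and the embryonic globin genes Hba-x (-2.37) and Hbb-bh1 (-2.30), and Tfrc was higher (1.66). Hemgn in caudal-half cells had a mean within the bacterial range, so the size of its difference rests on a value near background. In heart tube cells 4 were lower than in caudal-half cells, among them Slc4a1 (-2.09, with a heart tube mean within the bacterial range), Hba-x (-1.55) and Hbb-bh1 (-1.46). Against yolk sac cells 4 were lower, among them Hba-x (-3.91), and 1 was higher, Klf1 (2.14, limma adjusted p = 0.0182). Their mean level was 5.48 and 5.27 in heart tube cells, 5.83 and 5.60 in caudal-half cells and 6.38 and 6.64 in yolk sac cells. Gata1, the defining factor of red cells, was within the bacterial range in all 3 tissues (2.84, 3.29 and 3.02). Of 9 megakaryocyte genes, Itgb3 was lower in heart tube cells than in caudal-half cells, and 2 were lower against yolk sac cells in either tissue, Itgb3 and Itga2b in heart tube cells and F2rl2 (-2.10, with a caudal mean within the bacterial range) and Itga2b in caudal-half cells. Their mean level was 4.49 and 4.78, 4.74 and 4.90, and 5.02 and 5.07 in heart tube, caudal-half cells and yolk sac.

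Mesenchyme and cardiomyocyte genes were called higher in heart tube cells, as Mecom was. Between heart tube and caudal-half cells, 7 of 10 mesenchyme genes and 6 of 12 cardiomyocyte genes were higher in heart tube cells, as Tcf21 (4.08) and Tnni1 (3.97) were, and against yolk sac cells 4 and 8 were higher, with 3 mesenchyme genes lower, Lum (-5.70) and Col1a1 (-4.55) among them. The caudal mean of Tcf21 and the heart tube mean of Lum were within the bacterial range, so those sizes too rest on values near background. The mean level of the mesenchyme genes was 7.74 and 7.78 in heart tube cells, 6.01 and 5.95 in caudal-half cells and 7.62 and 7.43 in yolk sac cells. That of the cardiomyocyte genes was 7.11 and 7.09 in heart tube cells, 5.11 and 5.19 in caudal-half cells and 4.85 and 4.62 in yolk sac cells. Between caudal-half cells and yolk sac, where Mecom was higher, 5 of the 10 mesenchyme genes were lower and 2 higher, and of the cardiomyocyte genes Tnnt2 was higher (3.75). Endothelial markers were lower in heart tube cells, 5 of 12 against caudal-half cells with Eng higher (0.96), and 7 of 12 against yolk sac cells, with Cldn5 at -3.40 and -3.54. Between caudal-half cells and yolk sac 1 was higher and 2 lower. Their mean level was 9.01 and 9.10 in heart tube cells, 9.82 and 9.89 in caudal-half cells and 10.11 and 10.18 in yolk sac cells, an order that Lmo2 shared between heart tube and caudal-half cells but not between caudal-half cells and yolk sac. Of 8 epithelial genes, 5 and 6 were lower in heart tube cells than in caudal-half cells and yolk sac cells, and 3 lower in caudal-half cells than in yolk sac cells. Their mean level was 4.70 and 4.83 in heart tube cells, 6.46 and 6.33 in caudal-half cells and 7.61 and 7.38 in yolk sac cells. That of the visceral endoderm genes was 5.0 and 5.01, 5.43 and 5.37, and 9.36 and 9.34 in heart tube, caudal-half cells and yolk sac.

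**Figure D5:**
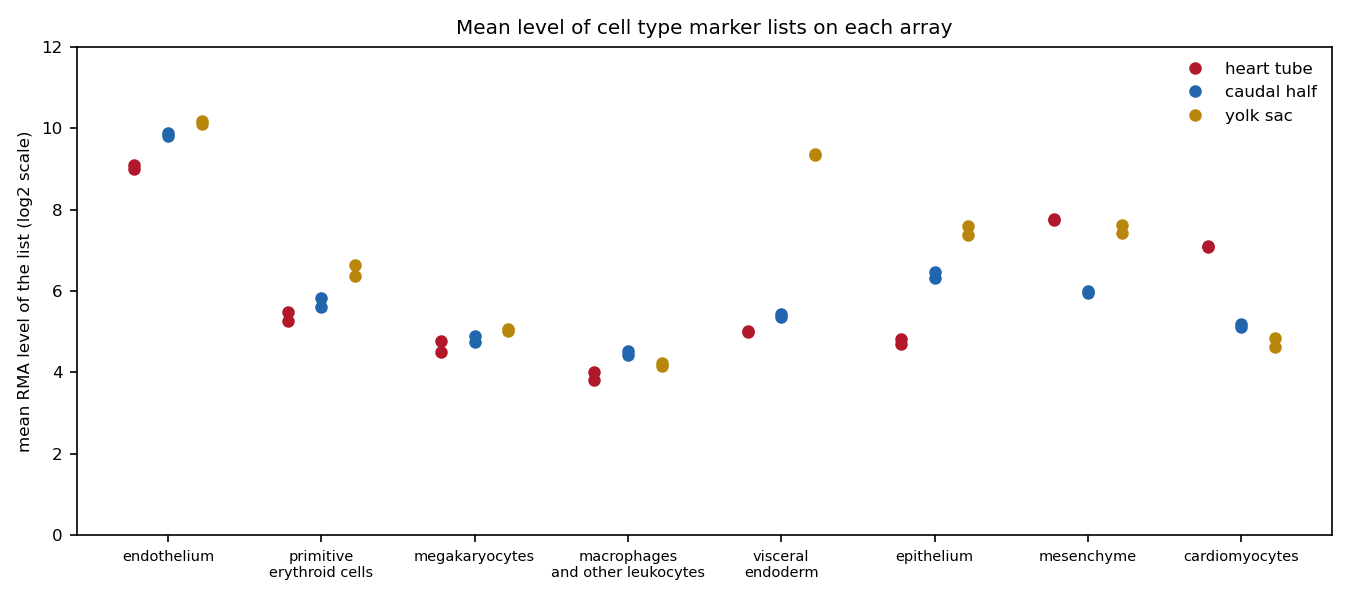
Mean RMA level (log2 scale) of 8 cell type marker lists on each array, with heart tube, caudal-half cells and yolk sac from left to right within a list; points are arrays. Visceral endoderm genes stand at 9.34 and 9.36 in yolk sac cells and at 5.43 or below elsewhere, and leukocyte genes differ by under 1 between any 2 arrays.

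For the Gapdh control probe sets, the 3' level less the 5' level, which follows how intact the RNA and its labelling are, was 1.88 and 1.98 in heart tube cells, 1.67 and 1.58 in caudal-half cells and 2.04 and 1.81 in yolk sac cells. It was lowest in caudal-half cells, the tissue where Lmo2, Gfi1 and Myb were highest, and its part in their differences was not tested. For the beta-actin controls this quantity ran from -0.10 to 0.01.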

How the data were processed

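RNA of 6 sorted samples was hybridised to Affymetrix mouse arrays, 1 array per sample. The submitters' processing notes name RMA and affy for the signal values the authors deposited, with no version. These signals spanned 2.46 to 2172540 and so passed the 16-bit scanner limit of 65535. Their natural logs spanned 0.899 to 14.6, as RMA log2 values do, and were used as such. Of 45101 probe sets, 34945 that were no controls carried 1 gene symbol, 932 carried several and 9211 none, per GEO's platform annotation. The one with the highest mean over 6 arrays stood for a gene, which gave 18193 genes. A mean per tissue was estimated by limma 3.58.1 (R 4.3.3) from all 6 arrays, without covariates and with 3 residual and 3.48 prior degrees of freedom. The 3 differences were tested two-sided, with Benjamini-Hochberg adjustment over all genes and calls at 0.05. Precision is limited by the number of arrays, and the standard error of a difference had a median of 0.21. The script was tested on simulated data.

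The 10 regulators and all lists were chosen with earlier results of these data known. Named genes were the 10 regulators, up to 4 called genes per list and comparison by size, 3 genes of the sort, and the 2 genes most like each called regulator. Gata1, Gata2, Runx1 and Tyrobp, Tfrc between caudal-half cells and yolk sac, and Klf1 between heart tube and yolk sac, were added after their values were seen. Alternatives changed the probe set summary, the unit tested, the filter on dim genes, the normalization, the scale, the variance model, the arrays in the fit and the replicate number as a block, and left out each array. The labels give no scan date or batch.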

Additional observations from a re-analysis of the deposited data

How the results depend on the processing

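With 2 arrays per tissue and signals near background for Gfi1, Gfi1b and Ikzf1, small differences could not be detected. No difference of a regulator that was called changed direction under any alternative. Apart from leaving out arrays, 264 values of regulator differences were recomputed, and 258 kept their side of the threshold. The exceptions were Gfi1 between heart tube and caudal-half cells with a variance trend (-1.81, limma adjusted p = 0.0364, now called) and 5 lost calls of Mecom. These were both of its comparisons with caudal-half cells under the mean of all probe sets (0.49 and 0.48), and caudal-half cells against yolk sac (0.76) with every named probe set tested on its own (limma adjusted p = 0.0571), with only the 2 tissues compared (0.0846) and with the replicate block (0.0673). The cause was not tested. Gfi1b and Ikzf1 gave no value without dim genes, which leaves them out.

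Without 1 array, the regulators called numbered 0 to 3 between heart tube and caudal-half cells, 1 between heart tube and yolk sac, and 0 to 3 between caudal-half cells and yolk sac. The counts over all genes were then 376 to 899, 936 to 1794 and 638 to 1155, against 1002, 2150 and 1652 with all arrays. Testing every named probe set on its own, which tests more features, gave 3416 calls between heart tube and yolk sac. The other alternatives stayed within 1.5 times these counts. Of the 26 calls on named list genes, 8 were lost in at least 1 other alternative. Recomputing these list genes was chosen after seeing the data.

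Whether the replicate numbers pair the samples could not be settled. Deviations of same-numbered arrays correlated at 0.05, -0.01 and 0.02 over all genes. This shows no shared shift, but it cannot show that the samples were unpaired. With the replicate block the regulators called were 3, 1 and 3, and all genes called 776, 1876 and 1356.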

Other observations

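Some paralogues of the regulators differed between tissues. Lmo4, a LIM-only relative of Lmo2, was at 8.21 and 8.46 in heart tube cells, 6.01 and 6.01 in caudal-half cells and 6.68 and 6.18 in yolk sac cells. It was higher in heart tube cells than in caudal-half cells by 2.32 ± 0.22 (SE; limma adjusted p = 0.00282) and than in yolk sac cells by 1.90 ± 0.22 (limma adjusted p = 0.00330), whereas Lmo2 was lower in heart tube cells than in caudal-half cells. Ldb2, the paralogue of Ldb1, was at 8.04 and 8.01 in heart tube cells, 9.05 and 9.31 in caudal-half cells and 10.62 and 10.80 in yolk sac cells. All of its 3 differences were called: -1.16 for heart tube against caudal-half cells, -2.68 for heart tube against yolk sac and -1.53 for caudal-half cells against yolk sac (limma adjusted p = 0.0168, 0.000409 and 0.00492). The first of these was lost without either heart tube or either caudal array (limma adjusted p up to 0.1). Mybl2, a relative of Myb with a part in the cell cycle, was lower in heart tube cells than in caudal-half cells (-0.88, limma adjusted p = 0.0373), a call lost without any 1 array (up to 0.182). Of 13 paralogues, 1 was higher and 2 lower between heart tube and caudal-half cells and 1 higher and 1 lower between heart tube and yolk sac. Between caudal-half cells and yolk sac Ldb2 was the single call. Their median differences were -0.17, -0.11 and 0.16, and those of all genes -0.08, -0.06 and 0.02.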
